A study of Mus musculus with 6 samples.

Results

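The genes described here build, bind and cut the extracellular matrix: collagens, laminins and a fibulin, the integrins that bind cells to them, the matrix metalloproteinases (MMPs) with their inhibitor Timp1, and the ADAM and ADAMTS proteases. They were taken by name, as the mRNA probes whose gene symbol starts with Col, Lam, Itg, Mmp, Timp, Adam, Adamts, Fbln, Fbn or Lox, followed by a chain letter or a number where the family uses one. The rule itself uses no measured value, but every probe for which a name was held was detected on at least 1 heart array. The rule gave 31 probes of 29 genes, out of 4093 mRNA probes of 3470 genes for which a name was held and out of 59729 probes on the microarray. The names come from a part of a longer table, and no fibrillin, lysyl oxidase or laminin gamma chain was among them, so those families were not analysed here.

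Heart failure (HF) was induced in male C57BL/6J mice by subcutaneous isoproterenol, a β-adrenergic agonist, for 1 week at a dose of 40 mg/kg/day. Saline was injected in control mice. RNA of heart, whole blood and plasma was mixed from 5 mice of each group by the study's microarray methods, while its extraction methods pool plasma of 10 mice, so the number of mice behind a blood or plasma array is not settled. Each of the 6 mixtures was hybridised in a single colour to 1 array. The groups are therefore control heart, HF heart, control whole blood, HF whole blood, control plasma and HF plasma, with no replicate of any. The difference between HF and control within a tissue therefore has no test, p value or SD and compares mixture with mixture. A fit of 1 HF effect over the 3 tissues was not run.

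The cardiac matrix is a mesh of type I and type III collagen fibrils around the myocytes, made mainly by fibroblasts, and a basement membrane of type IV collagen and laminin on the surface of myocytes and capillaries. Integrins are heterodimers of an alpha and a beta subunit that bind this matrix from the cell surface. MMPs cut matrix proteins and TIMPs inhibit them, while ADAMs mostly cut membrane proteins and ADAMTS enzymes act on secreted matrix proteins. Stimulation of β-adrenergic receptors by isoproterenol is a known way to produce fibrosis in the rodent heart.

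A level is the log2 of the background-subtracted signal after quantile normalization over the 6 arrays. A probe counts as detected where the scanner software flagged its spot as well above background without also marking it an outlier. A difference was called if control and HF arrays of that tissue both detected the probe and its levels lay 2-fold or more apart. The error beside a difference is the spot error given by the scanner software, combined over both arrays. It holds no spread between mice, and each of the 31 probes was printed as 1 spot. Between 25.0% and 47.3% of all probes were detected on an array. The heart arrays and the HF whole blood and HF plasma arrays were on 1 slide, and the control whole blood and control plasma arrays on another, so that slide and HF cannot be told apart in blood. In control whole blood 30411 of 61194 spots had the same lowest signal, and in HF plasma 25588, so levels near the bottom of these arrays have no order. Of the spots of the 20 negative probes, 12.4% carried the flag on the HF plasma array and at most 4.33% on the other 5.

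The control heart array detected all 31 probes and the HF heart array 22. In whole blood the control array detected 19 and the HF array 22, and in plasma the counts were 24 and 15. Every one of the 4093 named probes was detected on at least 1 heart array, so detection in heart is built into the table of names and is no result. With the names as they are, the control and HF shares of the 4093 detected were 98.2% and 75.5% in heart, 64.2% and 73.6% in whole blood, and 81.8% and 64.9% in plasma. A set of 9 probes was detected on all 6 arrays, and 21 at least once in each of the 3 tissues. No member was saturated on any array.

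**Figure D1:**
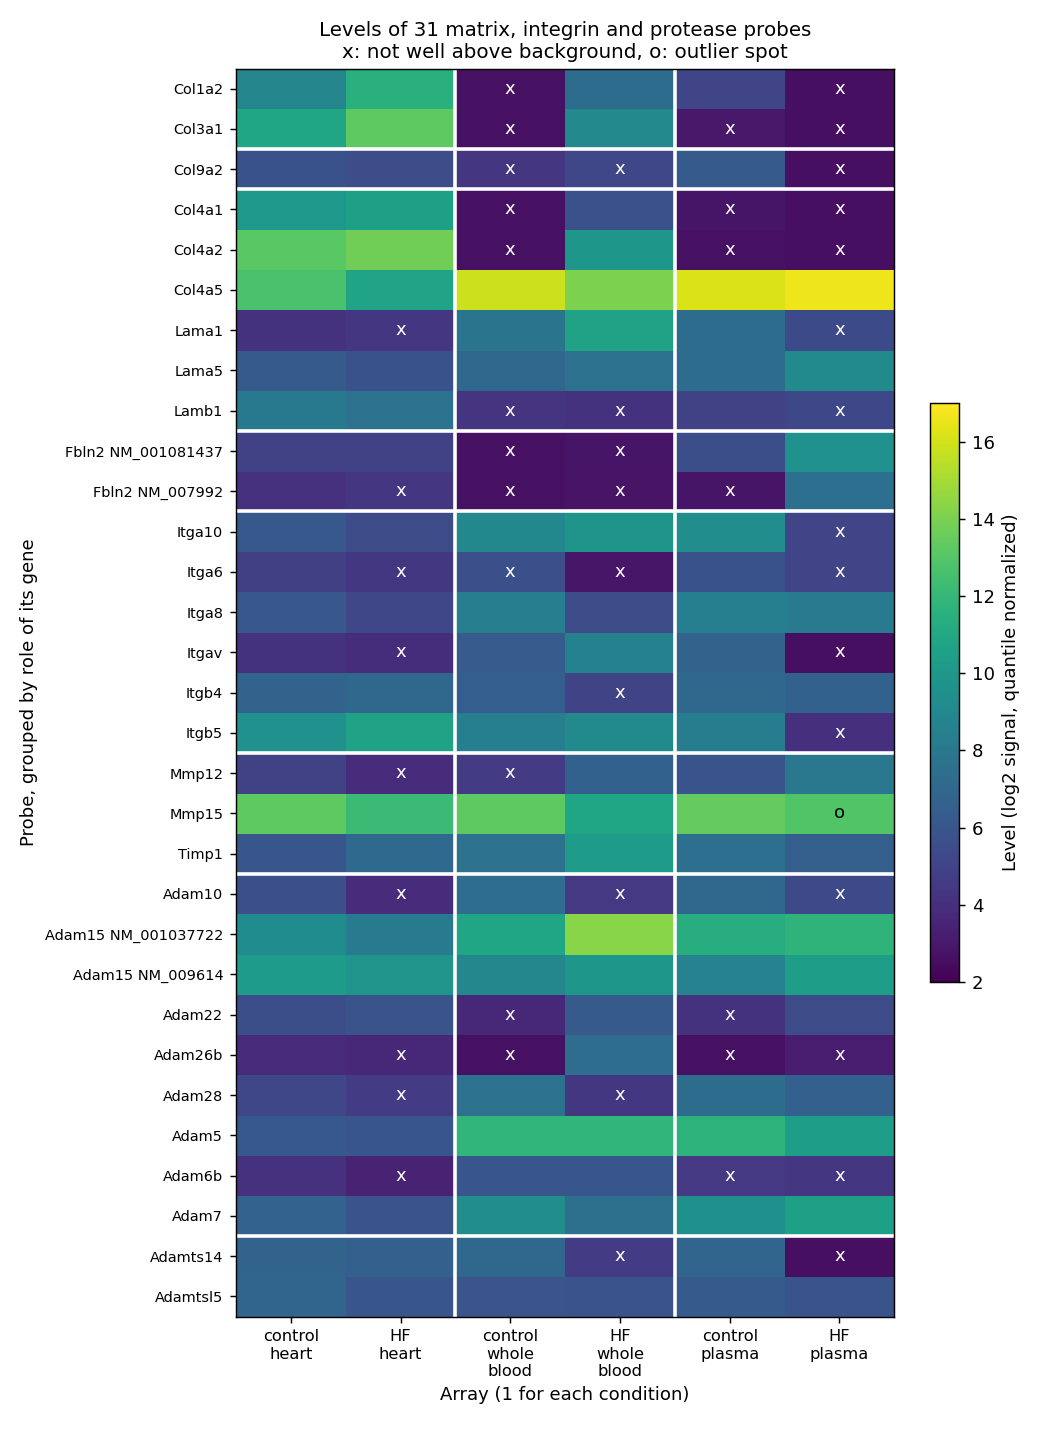
Level (log2 signal, quantile normalized, colour scale) of each of the 31 probes (vertical axis) on each of the 6 arrays (horizontal axis), with white lines between gene roles and tissues, a cross where the probe was not well above background and a circle for an outlier spot. Col1a2, Col3a1, Col4a1 and Col4a2 carry crosses on the control whole blood and HF plasma arrays but none in HF whole blood, and Col4a5 is brightest in the blood arrays.

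In the heart, both fibrillar collagens were higher in HF, and so were the integrin subunit Itgb5 and the inhibitor Timp1, while Col4a5, Mmp15 and 1 of 2 Adam15 probes were lower. Both heart arrays detected 22 of the probes, and of these 4 were called higher in HF and 3 lower. Among all 20065 probes detected on both, 13.9% were higher and 12.9% lower, and among the 3019 named mRNA probes 11.6% were higher and 17.1% lower. The median log2 fold change of the 22 was -0.20, against -0.16 for the named mRNA probes and 0.02 for all probes. These counts are close to the background, and the genes below are described one by one. With each array scaled to its 75th percentile the split was 5 higher and 2 lower, where 19.64% and 12% of all probes were. The split was 4 and 5 with the heart arrays normalized apart from the blood arrays, where 15.9% and 15.1% were. It was 3 and 2 with the normexp background correction, where 5.1% and 6.47% were.

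Col1a2, the alpha 2 chain of type I collagen, had a level of 8.82 in control heart and 11.55 in HF heart, a log2 fold change of 2.73 ± 0.20 (6.65-fold). Col3a1, the chain of type III collagen, went from 10.86 to 13.28, a log2 fold change of 2.42 ± 0.20 (5.36-fold). They had the largest heart differences of the 22 probes and were the 2 that passed a 4-fold threshold. Markers of fibroblasts and myofibroblasts stood beside them: the control heart array detected 5 of 6 marker probes and the HF heart array 6, and their summed signal was 18430 and 69090. Of the 5 detected on both, 1 was at least 2-fold higher and 0 lower, with a median log2 fold change of 0.59. Acta2, the smooth muscle actin of myofibroblasts, was at 13.42 and 15.81 and gave most of both sums. Fap, a surface protease of activated fibroblasts, was at 6.83 and 7.41, but it went against its name, at 12.66 and 13.86 in control and HF whole blood. In mixed tissue RNA, a change in the number of cells of a type and a change in RNA per cell cannot be told apart, and the part of these markers in the collagen values was not tested.

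The upstream DNA of the 4 genes that were higher in HF heart is shown so that their annotated starts can be set side by side. The windows hold the 250 bases before the annotated transcription start in RefSeq (GRCm38.p6), at chr6:4505368-4505617 for Col1a2, chr1:45311288-45311537 for Col3a1, chr16:33829415-33829664 for Itgb5 and chrX:20869916-20870165 for Timp1, all on the plus strand. Capitals mark matches on either strand to CCAAT (the CCAAT box), TATAAA (the TATA box), GGGCGG (the GC box), TGANTCA (the AP-1 site) and CAGAC (the SMAD box).
Col1a2: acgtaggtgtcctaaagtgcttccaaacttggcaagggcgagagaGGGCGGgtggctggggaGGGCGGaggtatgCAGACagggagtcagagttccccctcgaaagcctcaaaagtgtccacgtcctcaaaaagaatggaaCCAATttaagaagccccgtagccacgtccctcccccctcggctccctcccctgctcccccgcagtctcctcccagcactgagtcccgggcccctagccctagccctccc
Col3a1: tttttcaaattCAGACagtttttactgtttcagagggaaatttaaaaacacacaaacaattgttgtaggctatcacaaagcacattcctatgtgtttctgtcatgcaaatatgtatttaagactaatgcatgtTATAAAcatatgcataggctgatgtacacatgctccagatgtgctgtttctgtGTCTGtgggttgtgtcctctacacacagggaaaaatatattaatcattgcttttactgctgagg
Itgb5: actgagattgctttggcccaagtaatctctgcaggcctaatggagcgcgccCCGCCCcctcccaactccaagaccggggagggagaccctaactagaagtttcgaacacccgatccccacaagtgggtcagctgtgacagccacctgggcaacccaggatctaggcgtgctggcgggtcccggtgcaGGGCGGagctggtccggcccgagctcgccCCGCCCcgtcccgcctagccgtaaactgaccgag
Timp1: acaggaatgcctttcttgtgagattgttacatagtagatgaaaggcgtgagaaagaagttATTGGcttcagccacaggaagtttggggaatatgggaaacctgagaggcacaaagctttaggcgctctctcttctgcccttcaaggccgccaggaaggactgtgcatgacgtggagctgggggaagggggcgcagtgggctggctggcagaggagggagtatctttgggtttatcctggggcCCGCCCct
Of the 32851 RefSeq windows of this length, 33.9% held CCAAT, 12.4% TATAAA, 32.7% GGGCGG, 6.75% TGANTCA and 42.2% CAGAC. The Col1a2 window held 1 CCAAT, 2 GGGCGG and 1 CAGAC, and the Col3a1 window held 1 TATAAA and 2 CAGAC, so that CAGAC was found in both. The Itgb5 window held 3 GGGCGG, and the Timp1 window 1 CCAAT and 1 GGGCGG, both on the minus strand. These are matches of letters and were not measured here as binding. A window was held for 23 of the 29 genes.

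Col9a2, a chain of the fibril-associated type IX collagen of cartilage, was at 5.80 in control heart and 5.57 in HF heart, a log2 fold change of -0.23 ± 0.27, which is within its error.

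The probes for chains of basement membrane collagen divided. Col4a1 was at 9.97 in control heart and 10.53 in HF heart (log2 fold change 0.56 ± 0.20), and Col4a2 at 13.17 and 13.74 (0.57 ± 0.20). Both differences exceed the spot error and stay under 2-fold, at 1.47-fold and 1.48-fold, although Col4a2 passed the threshold with scaling to the 75th percentile (1.03). These genes encode the 2 chains of the main type IV collagen trimer and lie head to head on mouse chromosome 8. Their annotated transcripts overlap at the start by 22 bases, at chr8:11312805-11312826 (RefSeq, GRCm38.p6), shown 5′ to 3′ on the strand of each gene.
Col4a1: ttggagacgccgcccgcgcact
Col4a2: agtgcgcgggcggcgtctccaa
The other type IV chain held, Col4a5, a chain known from the basement membrane of the kidney glomerulus, was at 12.70 in control heart and 10.76 in HF heart. Its log2 fold change was -1.93 ± 0.20 (3.82-fold lower), the lowest of the 22 probes and opposite in sign to those of Col4a1 and Col4a2. The Col4a5 probe was brighter in blood than in heart, at 15.84 and 14.03 in control and HF whole blood and 16.17 and 16.59 in plasma. In control whole blood Col4a1 and Col4a2 were not detected, at 2.65. Whether the Col4a5 signal in heart follows its gene was not tested.

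Laminins did not reach 2-fold in heart. Lama5, an alpha chain found in many adult basement membranes, was at 6.23 in control and 5.78 in HF heart (log2 fold change -0.45 ± 0.24). Lamb1, a beta chain, was at 8.07 and 7.68 (-0.39 ± 0.21). Lama1, an alpha chain best known from the embryo, was at 4.20 in control heart and not well above background in HF heart, at 4.37. Fibulin-2, a matrix glycoprotein that binds basement membrane and elastic fibre proteins, had 2 probes, named by their RefSeq transcripts. The probe for NM_001081437 was at 4.93 and 4.96 (0.03 ± 0.37), and the probe for NM_007992 at 4.16 in control heart and not detected in HF heart, at 4.39.

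Of 6 integrin subunits, 1 was called in heart. Itgb5, which pairs with the alpha v subunit, was at 9.57 in control heart and 10.63 in HF heart, a log2 fold change of 1.06 ± 0.20 (2.09-fold). Its partner Itgav was at 4.17 in control heart and not detected in HF heart, at 3.96. Itgb4, the partner of alpha 6 in hemidesmosomes, was at 6.77 and 7.01 (log2 fold change 0.24 ± 0.21). Itga8, which pairs with beta 1, was at 6.08 and 5.17 (-0.91 ± 0.29). Itga10, a collagen-binding alpha subunit known from cartilage, was at 6.13 and 5.43 (-0.70 ± 0.28). Itga6, a laminin-binding alpha subunit, was at 4.87 in control heart and not detected in HF heart, at 4.41. With arrays of each tissue pair normalized by themselves or scaled to the 75th percentile, Itga8 passed 2-fold too, at -1.08 with the scaling.

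The proteases of the matrix and their inhibitor differed in direction. Timp1, the inhibitor, was at 5.99 in control heart and 7.14 in HF heart, a log2 fold change of 1.14 ± 0.21 (2.21-fold), and this call was lost with the normexp background correction, at 0.62. Mmp15, a membrane-type MMP, was at 13.29 and 12.23, a log2 fold change of -1.06 ± 0.20 (2.08-fold lower). The Mmp15 call was lost with scaling to the 75th percentile, at -0.53, and with heart and blood arrays normalized apart, at -0.98. Mmp12, the elastase of macrophages, was at 4.96 in control heart and not detected in HF heart, at 3.93. Macrophage markers were detected in both hearts, 6 of 7 probes in control and 7 in HF, with summed signals of 22050 and 21000, most of it from C1q genes such as C1qa, at 13.30 and 13.11. Cd68 was at 7.56 and 8.15. Of the 6 detected on both, 0 were called higher and 1 lower, and the probe gained was Lgals3, at 3.49 and 7.74 and at least 18.2-fold higher, named after its values were seen.

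Adam15, a membrane disintegrin and protease, had 2 probes that differed in heart. The probe for NM_001037722 was at 9.28 and 8.20, a log2 fold change of -1.08 ± 0.20, and the probe for NM_009614 at 10.21 and 9.85 (-0.36 ± 0.20). The first was not called with scaling to the 75th percentile (-0.85) or with normexp (-0.86), so the heart value of Adam15 depends on both the probe and the processing. Adam22, an ADAM without protease activity known from neurons, was at 5.58 and 5.86 (0.29 ± 0.25). Adam5 and Adam7, ADAMs known from the male reproductive tract, were at 6.16 and 5.99 (-0.18 ± 0.23) and at 6.71 and 5.82 (-0.89 ± 0.24). Adamts14, which removes the amino-terminal propeptide of fibrillar procollagens, was at 6.76 and 6.61 (-0.15 ± 0.21). Adamtsl5, an ADAMTS-like protein without a protease domain, was at 6.90 and 6.0 (-0.91 ± 0.23). With heart and blood arrays normalized apart, Adam7 and Adamtsl5 passed 2-fold, at -1.02 and -1.05. Adam10, a sheddase that cuts Notch and other membrane proteins, was at 5.67 in control heart and not detected in HF heart, at 3.90, which is at least 1.94-fold lower.

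A lower bound of this kind sets the detected level against the higher of the undetected probe's own level and the lowest level of any detected probe on that array. The other ADAMs not detected in HF heart were Adam28, known from lymphocytes, at 5.21 in control, Adam6b at 4.14 and Adam26b at 3.78, the last a pair known from testis. In all, 9 of the 31 probes were lost in HF heart. The share lost was 28.9% among all probes that control heart detected and 24.9% among the named mRNA probes. The 9 had control heart levels from 3.78 to 5.67, where the lowest level of any detected probe was 3.56.

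**Figure D2:**
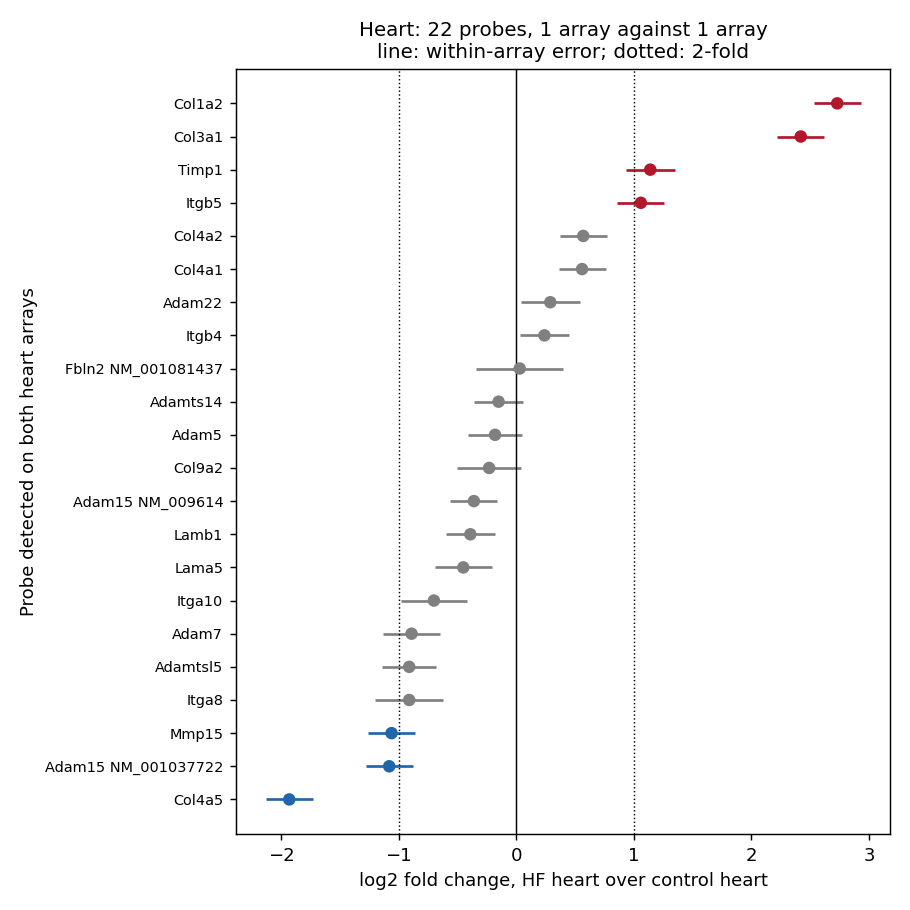
The log2 fold change of HF heart over control heart (horizontal axis) is plotted for each of the 22 probes detected on both arrays (vertical axis), with a line for the within-array error and dotted lines at 2-fold. Col1a2 and Col3a1 lie apart at 2.73 and 2.42, Timp1, Itgb5, Mmp15 Itga8, Adam7, Adamtsl5 and 1 Adam15 probe lie within their error of a 2-fold line, on either side of it, and Col4a5 is lowest at -1.93.

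Whole blood in HF held signal of 4 collagens that were not detected in control whole blood. Col1a2, Col3a1, Col4a1 and Col4a2 were not detected in control whole blood, where each was at the floor of 2.65, and had levels of 7.28, 9.07, 5.74 and 9.92 with HF. These are at least 2.84-fold for Col1a2, 9.79-fold for Col3a1 and 17.7-fold for Col4a2, and no fold is given for Col4a1, whose HF level lay below the lowest detected level in control whole blood, 5.78. Of the 12 probes not detected in control whole blood, 7 were detected in HF whole blood, where 13.0% of all such probes and 54.5% of the named mRNA probes were, so that the count of 7 is near that of other named mRNAs. The others of the 7 were Mmp12 (4.64 and 6.64, at least 1.82-fold), Adam22 (3.66 and 6.26, at least 1.40-fold) and Adam26b (2.65 and 7.39, at least 3.06-fold).

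Heart muscle markers moved with these values. Of 26 cardiomyocyte marker probes of 14 genes, control whole blood detected 7 and HF whole blood 25, and their summed signal was 23890 and 130800. All 19 that were not detected in control whole blood were detected in HF whole blood. Many of the 19 are probes for transcripts of the same gene, Tnnt2, so they do not stand for separate genes. Fabp3, a fatty acid binding protein of muscle, was at 2.65 and 13.91, and 15.89 in HF heart. Myh6, the cardiac myosin heavy chain and the brightest marker by mean level, went against its name, at 14.47 and 14.71 in whole blood and 10.88 and 10.68 in heart. It gave nearly all of the summed signal in control whole blood. Between HF heart and HF whole blood, on the same slide, the 19 marker probes were lower in whole blood by a median log2 difference of -3.31, from -4.33 to -1.14. The 5 members of the gained 7 that were detected in HF heart had a median of -4.21: -4.27 for Col1a2, -4.21 for Col3a1, -4.78 for Col4a1, -3.81 for Col4a2 and 0.40 for Adam22. In HF plasma none of the 4 collagens was detected, each at the floor of 2.62, and 6 of the 19 marker probes were. The part of heart RNA in the whole blood values was not tested.

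**Figure D3:**
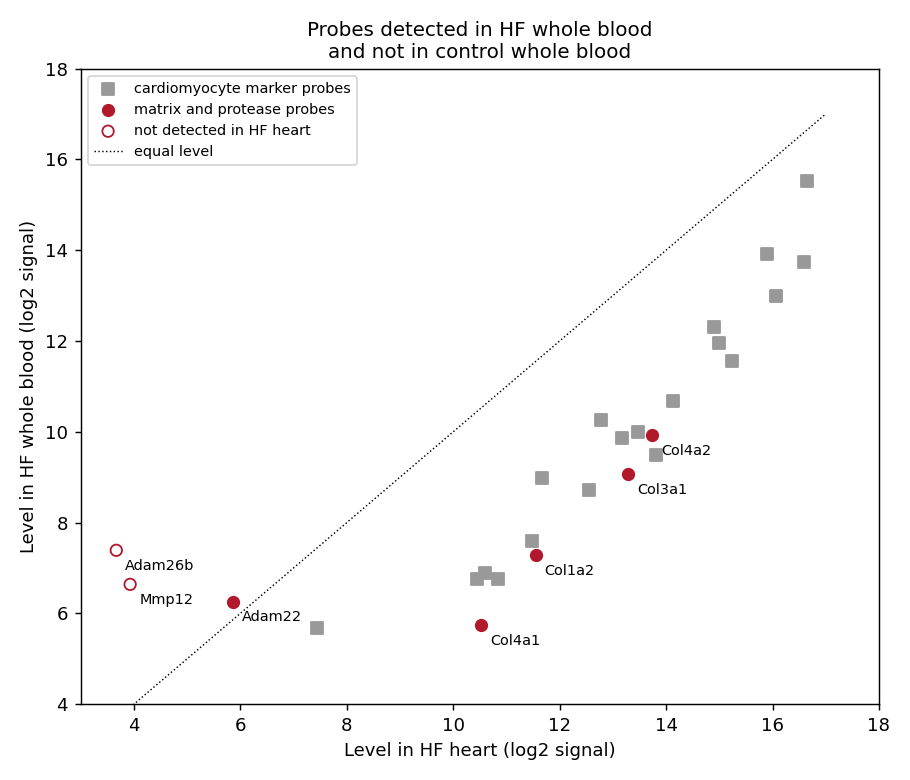
Level in HF whole blood (vertical axis, log2 signal) against level in HF heart (horizontal axis, log2 signal) for the probes detected in HF and not in control whole blood, 7 matrix and protease probes in red and 19 cardiomyocyte marker probes in grey. The 4 collagens lie along the lower edge of the grey squares, 3.81 to 4.78 log2 units under the line of equal level, while Adam22, Adam26b and Mmp12 lie above it.

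Both whole blood arrays detected 15 of the probes, of which 4 were called higher in HF and 4 lower, against 21.4% and 26.8% of all 11938 probes and 20.1% and 27.6% of the named mRNA probes. The median log2 fold change was 0.56, against -0.13 for all probes and -0.20 for the named ones. Adam15, by its NM_001037722 probe, was highest, from 10.85 to 14.35, a log2 fold change of 3.50 ± 0.20 (11.3-fold). The other Adam15 probe went from 8.94 to 9.94 and was just under the threshold at 1.995-fold. Lama1 was at 7.78 and 10.66 (2.88 ± 0.22), Timp1 at 7.68 and 10.21 (2.54 ± 0.22) and Itgav at 6.39 and 8.60 (2.21 ± 0.28). All 4 passed a 4-fold threshold as well and were called with scaling to the 75th percentile and with normexp, though the Adam15 value was smaller with the scaling, at 2.39, and that of Itgav with normexp, at 1.45.

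Lower in HF whole blood were Itga8, at 8.40 and 5.42 (log2 fold change -2.98 ± 0.34, 7.90-fold), and Mmp15, at 13.26 and 10.87 (-2.40 ± 0.20, 5.27-fold). Adam7 was at 9.40 and 7.54 (-1.87 ± 0.21) and Col4a5 at 15.84 and 14.03 (-1.80 ± 0.20). The sizes depend on the processing: with scaling to the 75th percentile Col4a5 was at -3.69 and Mmp15 at -3.33, and with normexp Itga8 was at -1.65. The integrins Itga10 (8.99 and 9.75) and Itgb5 (8.49 and 9.17) and the laminin Lama5 (7.09 and 7.65) were higher by less than 2-fold, with log2 fold changes of 0.76 ± 0.21, 0.68 ± 0.21 and 0.56 ± 0.25. Adam5 was at 11.88 on both arrays, Adam6b at 6.04 and 6.02, and Adamtsl5 at 5.95 and 5.92, which are differences within their errors. With the 75th percentile scaling the log2 fold change of Adam5 was -0.93.

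Of the 19 probes detected in control whole blood, 4 were not detected in HF whole blood, where 20.0% of all such probes and 15.8% of the named ones were not. They were Adam28 (7.59 in control, at least 5.27-fold lower), Adam10 (7.37, at least 4.52-fold lower), Adamts14 (7.09, at least 3.72-fold lower) and Itgb4 (6.49, at least 2.45-fold lower). Col9a2, Lamb1, Itga6 and both Fbln2 probes were detected on neither whole blood array.

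Blood cell markers moved with these differences as well. Of 5 neutrophil marker probes the control array detected 2 and the HF array 5, with summed signals of 958.5 and 30180. S100a9 was at 9.39 and 13.53 and Camp at 7.90 and 12.29. Of 4 lymphocyte marker probes 3 were detected on each, with summed signals of 3349 and 1153. Of these 3, 0 were called higher and 2 lower, with a median log2 fold change of -4.13, while Cd3e was at 9.30 and 9.98. Macrophage markers were detected for 3 and 7 of 7 probes, with summed signals of 410.0 and 3056. Platelet markers, 3 probes, were detected for 3 and 2, with 7786 and 3161, and Gp5 at 12.70 and 11.49. Of 9 erythroid marker probes the control array detected 7, the other 2 being bright outlier spots, and the HF array 9. Of the 7 detected on both, 0 were called higher and 4 lower, with a median log2 fold change of -1.66, while Hba-a1, at 17.58 and 17.35, and Hbb-b1, at 17.64 and 17.43, were not called. Their part in the values of the matrix and protease genes was not tested.

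In plasma, Fbln2 stood out on both of its probes. The NM_001081437 probe was at 5.59 in control plasma and 9.57 in HF plasma, a log2 fold change of 3.98 ± 0.30 (15.7-fold), and the NM_007992 probe was not detected in control plasma, at 2.83, and at 7.49 in HF plasma, at least 7.24-fold higher. Neither probe was detected in whole blood, where the levels were 2.65 and 2.86 for the first and 2.65 and 2.78 for the second. The HF plasma level of the first probe was above that in HF heart by a log2 difference of 4.61 ± 0.34.

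Both plasma arrays detected 13 of the probes, of which 4 were called higher in HF and 1 lower. Among all 12377 probes detected on both, 32.1% were higher and 25.6% lower, and among the named mRNA probes 32.8% and 23.7%. The median log2 fold change of the 13 was 0.39, against 0.21 for all probes and 0.29 for the named ones. Beside Fbln2, Mmp12 was higher, at 5.91 and 7.99 (2.08 ± 0.28, 4.23-fold), as were Lama5, at 7.28 and 9.09 (1.81 ± 0.21), and the NM_009614 probe of Adam15, at 8.66 and 10.35 (1.69 ± 0.21). Adam5 was lower, at 11.72 and 10.34 (-1.38 ± 0.20). With normexp the values of Fbln2, Mmp12 and Lama5 were smaller, at 2.96, 1.26 and 1.22, and still past 2-fold.

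The other 8 probes differed by less than 2-fold. Adam7 came closest, at 9.52 and 10.50 (log2 fold change 0.98 ± 0.20), then Timp1, at 7.45 and 6.53 (-0.92 ± 0.25), and Adam28, at 7.28 and 6.62 (-0.67 ± 0.25). Col4a5 was at 16.17 and 16.59 (0.42 ± 0.20) and the NM_001037722 probe of Adam15 at 11.36 and 11.75 (0.39 ± 0.20), and both turned direction with scaling to the 75th percentile, to -0.59 and -0.12. Itga8 was at 8.50 and 8.12 (-0.38 ± 0.21), Itgb4 at 7.0 and 6.67 (-0.34 ± 0.25) and Adamtsl5 at 6.26 and 5.91 (-0.34 ± 0.31).

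The integrins divided in plasma. All 6 subunits were detected in control plasma, and 4 were not well above background with HF, while Itga8 and Itgb4 differed by less than 2-fold as given above. Itga10 was at 9.33 in control plasma and at 5.16 in HF plasma, at least 15.6-fold lower. Itgb5 was at 8.29 and 4.10, at least 7.54-fold lower, and its partner Itgav at 6.78 and 2.62, at least 2.65-fold lower. Itga6 was at 5.79 and 5.15, at least 1.33-fold lower. Over all roles, 11 of the 24 probes detected in control plasma were not detected in HF plasma, 1 of them (Mmp15, 13.42 and 12.94) because its spot was flagged as an outlier. Among all probes 38.1% of those detected in control plasma were not detected in HF plasma, and among the named mRNA probes 33.4%. The rest of the 11 were Lama1 (7.32 and 5.35, at least 3.86-fold lower), Adam10 (7.06 and 5.30, at least 3.22-fold), Adamts14 (6.92 and 2.62, at least 2.93-fold), Col9a2 (6.25 and 2.62, at least 1.83-fold), Col1a2 (5.11 and 2.62) and Lamb1 (4.96 and 5.25), the last 2 with no bound above 1.

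Of the 7 probes not detected in control plasma, 2 were detected in HF plasma, the NM_007992 probe of Fbln2 and Adam22 (4.21 and 5.43, at least 1.74-fold), where 12.5% of all such probes and 57.3% of the named ones were. Col3a1, Col4a1, Col4a2, Adam6b and Adam26b were detected on neither array, at 3.0 and 2.62, 2.83 and 2.62, 2.66 and 2.62, 4.51 and 4.39, and 2.69 and 3.22. The HF plasma array also had less signal of red cell and platelet markers. Of 9 erythroid marker probes 8 were detected in control plasma and 4 in HF plasma, with summed signals of 480300 and 11970 over the 7 without an outlier spot, and Hbb-b1 was at 17.58 and 7.70. Platelet markers were detected for 3 and 2 of 3 probes, with summed signals of 10330 and 210.2, and Gp5 was at 13.22 and 6.01. Neutrophil markers went the other way, with 4 and 5 of 5 probes detected and summed signals of 1224 and 16180, and S100a9 at 9.77 and 11.92. The part of these cells in the plasma values was not tested.

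**Figure D4:**
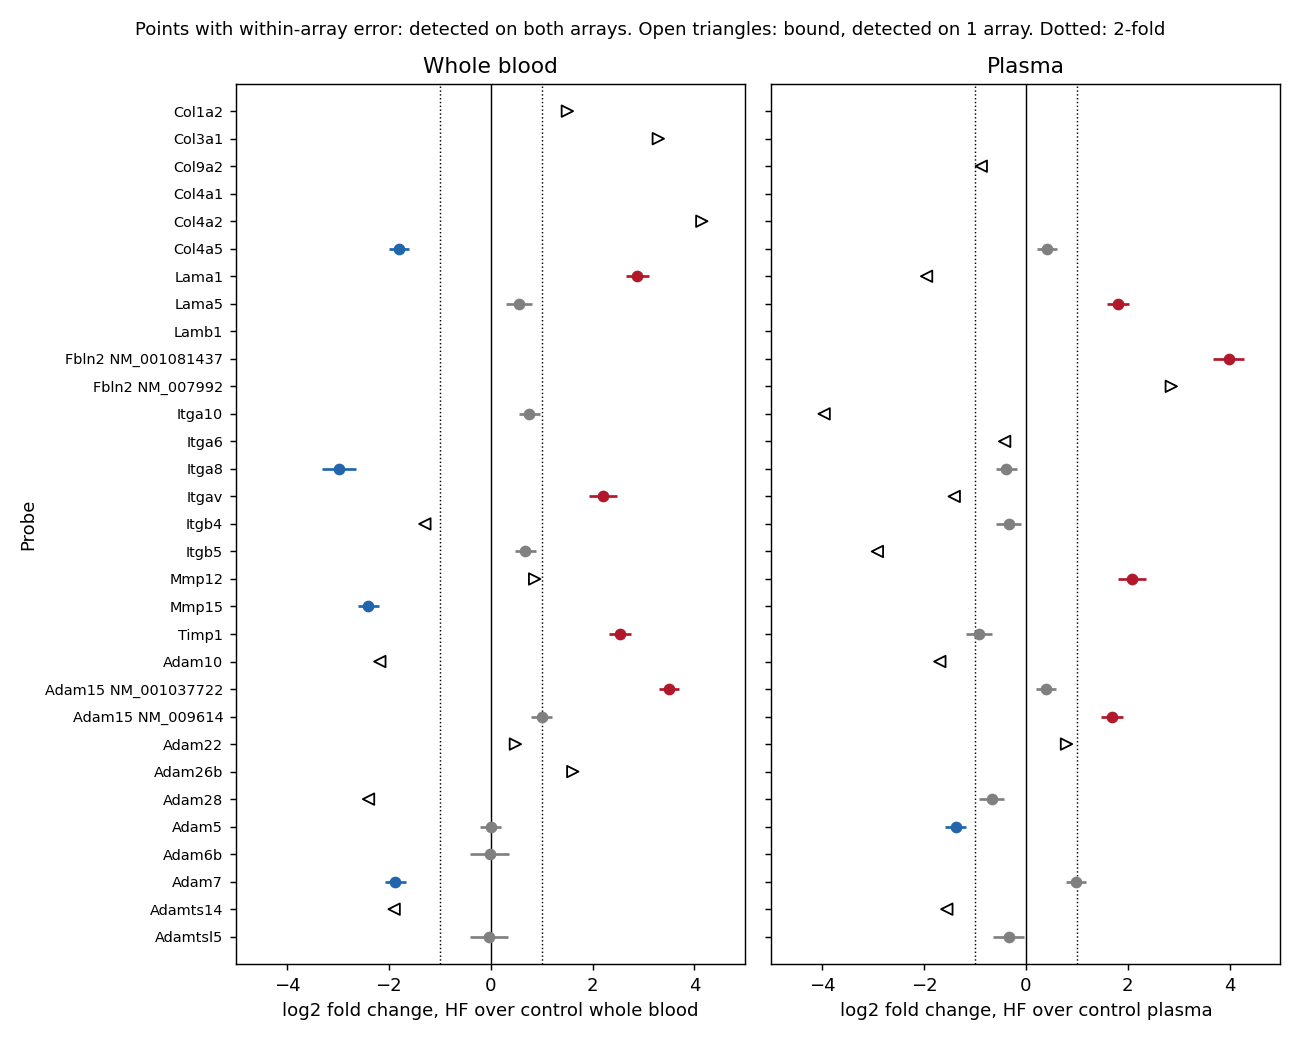
The log2 fold change of HF over control (horizontal axes) in whole blood (left) and plasma (right) is plotted by probe, with a row for each of the 31 probes (vertical axis). Points with the within-array error mark probes detected on both arrays, and open triangles mark the bound where 1 array detected the probe. Rows are empty for probes detected on neither array, for the Mmp15 outlier spot in plasma and where no bound is given (Col4a1 in whole blood, Col1a2 and Lamb1 in plasma). The triangles of Col1a2, Col3a1 and Col4a2 point right in whole blood, integrin triangles point left in plasma, and Fbln2 has a point at 3.98 and a triangle to the right in plasma.

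**Figure D5:**
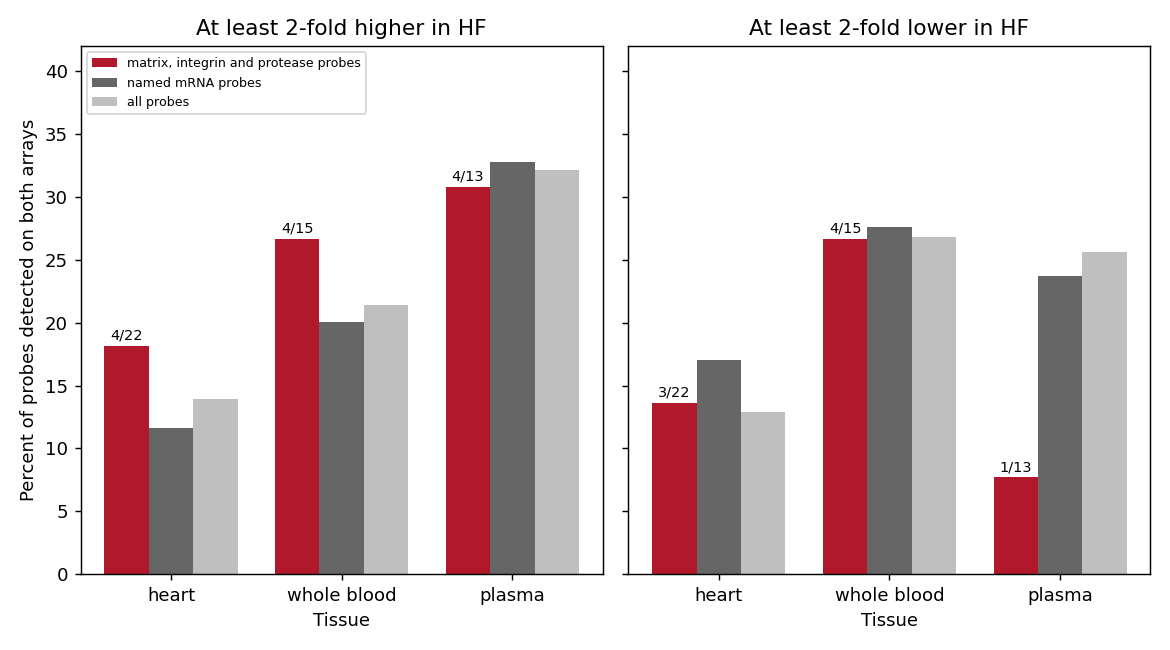
Percent of the probes detected on both arrays (vertical axis) that were at least 2-fold higher (left) or lower (right) in HF, by tissue (horizontal axis), for the matrix, integrin and protease probes in red with their counts, the named mRNA probes and all probes. The red bars stand for 13 to 22 probes each, with 4 higher in every tissue and 3, 4 and 1 lower in heart, whole blood and plasma.

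Levels of the same probe were also set between tissues on 1 slide. HF heart and HF whole blood shared 17 detected members, with levels 2-fold or more higher in heart for 6 and in whole blood for 7, where 34.5% and 43.3% of the named mRNA probes were. Higher in heart were the 4 collagens above, Itgb5 by a log2 difference of 1.46 ± 0.21 and Mmp15 by 1.36 ± 0.20. Higher in whole blood were the NM_001037722 probe of Adam15 (a heart minus whole blood log2 difference of -6.15 ± 0.20), Adam5 (-5.90 ± 0.23), Itga10 (-4.32 ± 0.27), Col4a5 (-3.27 ± 0.20), Timp1 (-3.07 ± 0.21), Lama5 (-1.86 ± 0.24) and Adam7 (-1.72 ± 0.24).

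HF heart and HF plasma shared 12 detected members, with levels 2-fold or more higher in heart for 0 and in plasma for 7, where 22.3% and 55.4% of the named mRNA probes were. The median heart minus plasma log2 difference of the 12 was -3.13, against -1.35 for the named ones. Col4a5 was highest in plasma against heart, with a log2 difference of -5.82 ± 0.20, followed by Adam7 (-4.68 ± 0.23), Fbln2 (-4.61 ± 0.34) and Adam5 (-4.35 ± 0.23). Of the 22 members detected in HF heart, 10 were not detected in HF plasma, the 4 collagens among them. The same held for 1058 of the 3092 named mRNA probes and 10410 of all 20938 probes detected in HF heart.

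Control whole blood and control plasma, which shared the other slide, gave like levels of the same probes. None of the 18 members detected on both differed 2-fold, with log2 differences from -0.52 to 0.46, where 2.84% of the named mRNA probes were at least 2-fold higher in whole blood and 2.68% in plasma. Hba-a1 was at 17.58 in control whole blood and 17.53 in control plasma.

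Genes that work with these proteins were counted from 5 lists that hold no member: matrix proteins and proteoglycans, collagen modification and processing, other proteases and inhibitors, adhesion receptors and adaptors, and TGF-beta and growth factor signalling. They hold 83 genes with 99 probes. In heart 86 probes were detected on both arrays, and 22 were at least 2-fold higher and 12 lower in HF, to be read beside 13.9% and 12.9% of all probes and 11.6% and 17.1% of the named ones. Matrix proteins and proteoglycans had 7 higher and 3 lower of 26, collagen modification 3 and 1 of 10, other proteases and inhibitors 6 and 1 of 16, adhesion receptors and adaptors 2 and 5 of 21, and TGF-beta and growth factor signalling 4 and 2 of 13. Their median log2 fold changes were 0.41, 0.72, 0.75, -0.05 and -0.17, to be read beside 0.02 for all probes. With normexp the lists together had 4 lower in heart in place of 12, while the share of all probes that were lower was 6.47% in place of 12.9%.

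The largest heart differences in the lists were those of Ctgf, a matricellular growth factor, at 11.68 and 16.40 (log2 fold change 4.72 ± 0.20), elastin (Eln), at 8.09 and 12.53 (4.43 ± 0.20), and the protease inhibitor Serpina3n, at 8.59 and 11.77 (3.18 ± 0.20). Lowest were Bsg, a membrane protein that induces MMPs, at 11.33 and 9.31 (-2.02 ± 0.20), the collagen receptor Ddr1, at 10.79 and 9.05 (-1.74 ± 0.20), and Serpinh1, the collagen chaperone, at 10.34 and 8.69 (-1.66 ± 0.20). The probes of Serpinh1 differ, since another of its 3 probes was at 5.26 and 7.09 (1.83 ± 0.23).

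In whole blood 46 of the 99 probes were detected on both arrays, with 14 higher and 10 lower in HF, where 21.4% and 26.8% of all probes and 20.1% and 27.6% of the named ones were. A further 33 of the 49 not detected in control were detected in HF, a share that was 13.0% for all probes and 54.5% for the named ones. By list, 6 and 3 of 14, 2 and 1 of 5, 5 and 1 of 6, 1 and 1 of 13 and 0 and 4 of 8 were higher and lower, in the order above. The crosslinking enzyme Tgm2 was at 6.21 and 10.68 (log2 fold change 4.47 ± 0.30), matrix Gla protein (Mgp) at 9.66 and 13.49 (3.83 ± 0.21) and nidogen-2 (Nid2) at 7.84 and 10.73 (2.88 ± 0.22). Multimerin-1 (Mmrn1), a platelet protein, was at 9.90 and 6.23 (-3.67 ± 0.25), the basement membrane protein Frem1 at 9.88 and 7.36 (-2.53 ± 0.22) and the growth factor Pdgfa at 10.80 and 8.42 (-2.38 ± 0.21).

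In plasma 42 were detected on both arrays, with 13 higher and 8 lower, where 32.1% and 25.6% of all probes and 32.8% and 23.7% of the named ones were. The HF array lost 31 of the 73 detected in control, where 38.1% of all such probes and 33.4% of the named ones were lost. By list, 4 and 2 of 15, 3 and 1 of 4, 1 and 3 of 4, 4 and 1 of 14 and 1 and 1 of 5 were higher and lower. Cathepsin K (Ctsk), a collagen-cutting protease, was at 6.21 and 11.01 (log2 fold change 4.80 ± 0.24), talin-2 (Tln2), which links integrins to actin, at 5.71 and 9.41 (3.71 ± 0.28) and bone sialoprotein (Ibsp) at 5.18 and 8.53 (3.36 ± 0.32). Decorin (Dcn), a proteoglycan of collagen fibrils, was at 10.98 and 7.73 (-3.25 ± 0.21), Ltbp4, which binds latent TGF-beta, at 10.66 and 8.22 (-2.44 ± 0.17) and 1 Serpinh1 probe at 13.22 and 10.85 (-2.36 ± 0.20). Another Serpinh1 probe went the other way in plasma, at 5.83 and 8.46 (2.63 ± 0.26), and the remaining one was an outlier spot in HF plasma.

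The tissues were checked against their markers. In control and HF heart 25 and 26 of the 26 cardiomyocyte probes were detected, the remaining one in control being an outlier spot, with summed signals of 479800 and 517300, and 9 of 9 erythroid probes on both, with 180100 and 222700. Neutrophil markers differed in heart too, with 4 and 5 of 5 probes detected and summed signals of 361.9 and 3695, as Camp was at 5.14 and 9.60. Endothelial markers, 10 probes, were detected for 10 and 9 in heart, with summed signals of 8653 and 5476, and went both ways, with 3 called higher and 4 lower of 9. Sox18 was at 10.80 and 10.42, and the 2 Eng probes at 6.20 and 6.03 and at 7.85 and 9.05. Named after their values were seen, the 2 Pecam1 probes had log2 fold changes of 1.81 and 2.26 and the 4 Cd36 probes of -2.62 to -2.24. In whole blood 8 and 9 of them were detected, with 2549 and 2194, and in plasma 9 and 6, with 2263 and 964.1. Heart platelet markers, 3 and 2 of 3 probes detected, had summed signals of 890.8 and 241.7, and heart lymphocyte markers, 4 and 3 of 4 probes, 262.1 and 632.6. In plasma, cardiomyocyte markers were detected for 15 and 11 of 26 probes, with summed signals of 22220 and 22690. Nearly all of both sums came from Myh6, at 14.36 and 14.38, a probe that was brighter in blood than in heart. Fibroblast markers in plasma were detected for 5 and 3 of 6, with 3347 and 616.8 over the 5 probes without an outlier spot. Macrophage markers in plasma were detected for 5 and 5 of 7, with 627.6 and 893.1, and lymphocyte markers for 3 and 3 of 4, with 3133 and 759.7. Fibroblast markers in whole blood were detected for 3 and 4 of 6, with summed signals of 1749 and 7849 over the same 5 probes.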

How the data were processed

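Levels were measured on a mouse LncRNA and mRNA microarray in 6 mixtures of RNA, 1 for each of heart, whole blood and plasma of control and HF mice. The authors scanned the arrays and extracted, per the file headers, 1 intensity for each spot with Feature Extraction 11.0.1.1, whose output already has background removed. The deposited values are not normalized between arrays. Labelling used random priming, so probes anywhere on a transcript can give signal.

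Control spots were left out, repeat spots of a probe were averaged as log2 intensities, and 59729 probes were quantile normalized over the 6 arrays with limma (version 3.58.1). The study's methods ask for a present or marginal flag on 2 of 2 arrays and a 2-fold difference. Here the flag of well above background, with no outlier mark, was required, and a weaker flag (positive and significant) was an alternative. Gene names came from the 4093 names of the study's mRNA table that were held here, of which only the name columns were used, and 29 member probes carried an accession that RefSeq lists under the same symbol, with 2 not listed. The deposited table of the whole series was not used. Every member was named. Genes of related lists were named if called, with at most the 3 largest in each direction for a tissue, and of each marker list the 2 with the highest mean level were named, except 1 marker gene that is not reported here. Members, lists and thresholds were chosen with earlier results of these data known. Alternatives were 75th percentile scaling, normalization of heart and blood arrays apart, normexp with an offset of 50, the weaker flag, outlier spots kept, no detection filter, and thresholds of 1.5-fold and 4-fold. Normalization of each pair of arrays and all alternatives for comparisons between tissues and for related genes were added after the data had been seen. Steps were tested on simulated data. R 4.3.3, Python 3.11.15, numpy 2.4.6, pandas 2.3.3 and matplotlib 3.10.9 were used.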

Additional observations from a re-analysis of the deposited data

Results flagged for a closer look

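Some members were called or bounded in opposite directions in different tissues, and these differences between tissues were not tested, as each value rests on 1 array against 1 array. Lama1 was higher in HF whole blood by 2.88 on the log2 scale, and in plasma it was lower in HF by at least 3.86-fold. Itgav was higher in HF whole blood by 2.21 on that scale, and in plasma it was lower in HF by at least 2.65-fold. Itgb5 had a log2 fold change of 1.06 in heart, and in plasma it was lower in HF by at least 7.54-fold. The NM_001037722 probe of Adam15 had a log2 fold change of -1.08 in heart and 3.50 in whole blood.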

How the results depend on the processing

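With 1 array for each condition no replicate could be left out and no difference within a tissue could be fitted with an error between samples. Signal over background limits the low members most. No called fold change changed sign under any alternative, while the uncalled plasma values of Col4a5 and of 1 Adam15 probe, and the heart value of 1 Fbln2 probe, which is within its error, did with scaling to the 75th percentile. Counts are given as higher and lower in HF. In heart, 4 and 3 became 4 and 5 with heart and blood arrays normalized apart, with each pair normalized by itself, with the weaker flag and with no detection filter, 4 and 7 at 1.5-fold, and 2 and 0 at 4-fold. The shares of all probes were 15.9% and 15.1% with either of these normalizations, 13.45% and 13.03% with the weaker flag and 8.46% and 9.5% with no filter. They were 26.28% and 25.03% at 1.5-fold and 2.79% and 1.12% at 4-fold. Members compared rose from 22 to 31 with the weaker flag and with no filter. In whole blood, 4 and 4 of 15 became 6 and 8 of 23 with the weaker flag, 11 and 9 of 31 with no filter, 7 and 4 at 1.5-fold and 4 and 2 at 4-fold. The shares of all probes were 23.94% and 28.03% with the weaker flag and 20.22% and 20.38% with no filter. They were 30.45% and 36.82% at 1.5-fold and 8.59% and 10.92% at 4-fold. In plasma, 4 and 1 of 13 became 5 and 5 of 21 with the weaker flag, 6 and 9 of 31 with no filter, 5 and 3 at 1.5-fold and 2 and 0 at 4-fold. The shares of all probes were 30.93% and 26.6% with the weaker flag and 21.58% and 21.57% with no filter. They were 40.98% and 31.83% at 1.5-fold and 18.07% and 15.19% at 4-fold. Members detected in HF plasma rose from 15 to 23 with the weaker flag. That flag also gave 12 members higher in HF whole blood than in HF heart in place of 7, 2 and 11 higher in HF heart and HF plasma in place of 0 and 7, and 1 and 2 higher in control whole blood and control plasma in place of 0 and 0. More members are compared under that flag, and the shares of other probes in these comparisons between tissues are not given here. Scaling to the 75th percentile moved the median log2 fold change of all probes from 0.02 to 0.20 in heart, from -0.13 to -0.35 in whole blood and from 0.21 to 0.09 in plasma. Of 50 member fold changes, 23 moved by more than their error with this scaling, 19 with normexp and 1 with heart and blood arrays apart. The cause of these shifts was not tested.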
